A study of Mus musculus with 4 samples.

Results

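The genes described here are the parts of gamma-secretase and the membrane proteases that cut Notch before it. They are Psen2, Psenen, Ncstn, Aph1a, Adam10 and Adam17, taken by symbol from a table of 18436 genes, and all 6 were among the 12621 genes that passed a filter at a mean of 0.5 FPKM (sequenced fragments scaled to transcript length and to the size of the library, so a level per unit of length). The question was whether their RNA differed in mouse intestinal stem cells after deletion of CREPT, the product of Rprd1b, a protein that binds RNA polymerase II. Lgr5-GFPhigh cells were sorted from 2 Lgr5-WT and 2 Lgr5-CREPTKO mice and sequenced. Both groups were on a C57BL/6 background, carried Lgr5-EGFP-IRES-creERT2, so that GFP and a tamoxifen-inducible Cre came from the Lgr5 locus, and received tamoxifen at 1 mg per day for 5 days before sorting on day 7. The Lgr5-CREPTKO mice also carried CREPT fl/fl alleles. Expression from this knock-in is mosaic, so crypts that silence it contribute no cells, and the age and sex of each mouse were not used here.

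Notch is a receptor that is activated by being cut. When a ligand on a neighbouring cell pulls on it, ADAM10 removes its extracellular part, and gamma-secretase then cuts the remaining stub within the membrane and frees an intracellular domain that acts with RBPJ in the nucleus. Gamma-secretase is built from a presenilin, which holds the catalytic site, nicastrin, APH-1 and the presenilin enhancer encoded by Psenen. In the crypt, Notch activity keeps stem cells and absorptive progenitors from taking a secretory fate, and blocking gamma-secretase turns proliferating crypt cells into goblet cells. ADAM17, a related protease, is best known for releasing TNF and ligands of the EGF receptor.

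The 4 gamma-secretase genes did not lie on the same side of their Lgr5-WT levels. In Lgr5-CREPTKO cells Psenen stood at 0.669 times and Aph1a at 0.742 times the Lgr5-WT mean, whereas Psen2 stood at 1.23 times and Ncstn at 1.09 times. Adam10 and Adam17 stood at 1.05 and 1.06 times. None of these differences passed an adjusted p of 0.05 in a limma fit over all genes tested, with Psenen nearest to it. Over all genes tested 3.08% passed that threshold, 2.67% lower and 0.412% higher in Lgr5-CREPTKO cells. At an unadjusted p below 0.05, 3 of the 6 members and 3086 of the 12621 genes passed.

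The deleted gene went with the labels. In the paper 1 exon of this gene is flanked for removal by Cre. Its level over the whole gene therefore does not give the share of cells with the deletion. Rprd1b measured 17.69 and 18.09 FPKM in Lgr5-WT mice and 6.65 and 7.36 FPKM in Lgr5-CREPTKO mice, a log2 fold change of -1.29 with a limma adjusted p of 0.028. With any 1 mouse left out that adjusted p was 0.123 to 0.295, and no gene of the table was then called. Of 10 Lgr5 stem cell markers 9 were higher in both Lgr5-CREPTKO mice than in both Lgr5-WT mice, with Lgr5 at 47.67 and 37.7 FPKM in Lgr5-WT mice and 52.04 and 60.1 FPKM in Lgr5-CREPTKO mice. Their summed level, most of it Olfm4, was 6050 and 5840 against 6575 and 6355 FPKM. Markers of goblet, enteroendocrine, tuft and secretory progenitor cells went the other way. In both Lgr5-CREPTKO mice 6 of 7 goblet and 6 of 6 enteroendocrine markers were lower than in both Lgr5-WT mice. So were 5 of 5 tuft and 5 of 5 secretory progenitor markers, but 0 of 6 Paneth markers. Over all genes tested 31.0% were lower and 25.6% higher in both Lgr5-CREPTKO mice than in both Lgr5-WT mice. The goblet sum was 1465 and 2441 against 802.3 and 935.8 FPKM, the enteroendocrine sum 153.0 and 165.9 against 40.54 and 57.01 FPKM, the tuft sum 17.12 and 33.8 against 14.27 and 5.87 FPKM, and the progenitor sum 55.93 and 87.71 against 46.29 and 36.94 FPKM. The Paneth sum ran from 830.4 to 2445 FPKM and the enterocyte sum from 208.9 to 390.7 FPKM with the groups overlapping, and all 6 stromal markers were below 0.5 FPKM in every mouse. Immune markers summed to 4.16 and 6.03 against 1.88 and 6.75 FPKM, with the groups overlapping. Erythroid markers summed to 4.21 and 2.32 against 0.7 and 0.76 FPKM, lower in both Lgr5-CREPTKO mice. The part of these markers in the members' values was not tested, and in RNA from sorted pools fewer cells of a type cannot be told apart from less RNA per cell.

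Psenen was the most abundant member. It lies on chromosome 7 from 30561865 to 30563627 on the minus strand (GRCm38.p6). Its longest protein-coding GENCODE transcript, of 708 bases in 4 exons, is the shortest of the 6. The gene starts head to head with U2af1l4, a splicing factor gene on the opposite strand, and the 59 bases that lie between the GENCODE starts of the shorter Psenen transcripts and of U2af1l4 are shown because both genes are transcribed away from them. The stretch is exon-free in the annotation, falls in an intron of longer Psenen transcripts, ends a little before the start that RefSeq gives the shorter transcript at 30563204, and is read on the Psenen strand at chr7:30563242-30563300 (RefSeq, GRCm38.p6).
Psenen: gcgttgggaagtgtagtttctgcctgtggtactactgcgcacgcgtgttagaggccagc

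In the Lgr5-WT mice Psenen measured 89.78 and 103.37 FPKM, and in the Lgr5-CREPTKO mice 67.46 and 61.74 FPKM. Both Lgr5-CREPTKO values lay below both Lgr5-WT values, and the gap between the groups was wider than the spread within either. The means were 96.6 ± 9.61 and 64.6 ± 4.04 FPKM (SD, n = 2 mice each). The fitted log2 fold change was -0.57 with a standard error of 0.0987, a 95% interval of -0.83 to -0.32 and a limma adjusted p of 0.057. With genes for small RNAs left out of the table the adjusted p was 0.0418 at the same log2 fold change, with any 1 mouse left out it was 0.201 to 0.303, and once length and GC were corrected for, as described further on, it was 0.243 at a log2 fold change of -0.31. The product of Psenen enters the complex last and is needed for presenilin to be cut into its active form.

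Of the 1275 exonic bases of Psenen, 119 also belong to exons of U2af1l4 and 111 to exons of Gm49396, both on the other strand. Whether reads were counted by strand is not given in the sources used here. U2af1l4 measured 31.45 and 28.61 FPKM in Lgr5-WT mice and 26.95 and 23.6 FPKM in Lgr5-CREPTKO mice. Its log2 fold change was -0.25, with a limma adjusted p of 0.222. The head-to-head partner thus also had both Lgr5-CREPTKO values below both Lgr5-WT values, and its difference did not pass the test.

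Aph1a encodes the main APH-1 scaffold, which binds nicastrin early in assembly. It lies on chromosome 3 from 95893921 to 95898592 on the plus strand, with a transcript of 2863 bases in 6 exons. The 250 bases before its start are shown because it is the other member that was lower in both Lgr5-CREPTKO mice. They run on the plus strand at chr3:95893671-95893920 (RefSeq, GRCm38.p6), with capitals marking CCAAT boxes (ATTGG on this strand), a GC box (CCGCCC on this strand) and an ETS core (TTCCGG on this strand).
Aph1a: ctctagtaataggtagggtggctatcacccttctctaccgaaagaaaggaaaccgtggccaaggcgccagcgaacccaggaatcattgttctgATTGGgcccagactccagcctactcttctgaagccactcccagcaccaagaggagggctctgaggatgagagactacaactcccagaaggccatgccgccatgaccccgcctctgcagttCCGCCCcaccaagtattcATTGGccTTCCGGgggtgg

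Aph1a measured 45.32 and 51.29 FPKM in Lgr5-WT mice and 34.75 and 36.89 FPKM in Lgr5-CREPTKO mice. The groups did not overlap, and the higher Lgr5-CREPTKO mouse lay below the lower Lgr5-WT mouse. The means were 48.3 ± 4.22 and 35.8 ± 1.51 FPKM (SD, n = 2 each). The log2 fold change was -0.42 with a standard error of 0.0909, a 95% interval of -0.66 to -0.19 and a limma adjusted p of 0.0761. Aph1a shares 445 of its 3450 exonic bases with Car14, a carbonic anhydrase gene on the opposite strand, which stood at 0.18 FPKM or less in every mouse.

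The other APH-1 genes of the mouse were low. Aph1b measured 0.57 and 0.98 FPKM in Lgr5-WT mice and 0.89 and 0.33 FPKM in Lgr5-CREPTKO mice, with overlapping groups and a limma adjusted p of 0.744. Aph1c, which is nearly identical to Aph1b so that reads could be split between them, stayed below the filter at 0.29 to 0.5 FPKM. Aph1a was thus the only APH-1 gene well above the filter in either group.

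Psen2 encodes a presenilin, the catalytic subunit. It lies on chromosome 1 from 180227004 to 180263467 on the minus strand, with a transcript of 2020 bases in 11 exons. Psen2 measured 10.24 and 11.5 FPKM in Lgr5-WT mice and 13.06 and 13.61 FPKM in Lgr5-CREPTKO mice. Here the direction was the opposite of that of Psenen and Aph1a, with both Lgr5-CREPTKO values above both Lgr5-WT values. The means were 10.9 ± 0.891 and 13.3 ± 0.389 FPKM (SD, n = 2 each), and the log2 fold change of 0.29 had a standard error of 0.0982 and a 95% interval of 0.03 to 0.54. The limma adjusted p was 0.167.

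Ncstn encodes nicastrin, the large glycoprotein that covers the complex on the outside of the membrane and takes part in admitting substrates. It lies on chromosome 1 from 172066013 to 172082789 on the minus strand, with a transcript of 2901 bases in 17 exons. Ncstn measured 46.2 and 46.86 FPKM in Lgr5-WT mice and 49.17 and 51.82 FPKM in Lgr5-CREPTKO mice. The groups did not overlap, but the gap between them was small beside their level. The log2 fold change was 0.12 with a standard error of 0.0699, and its 95% interval of -0.06 to 0.3 included 0 (limma adjusted p 0.373). Ncstn shares 195 of 3975 exonic bases with Copa on the opposite strand, a coat protein gene whose groups overlapped at 73.88 and 72.25 against 69.63 and 74.63 FPKM.

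**Figure D1:**
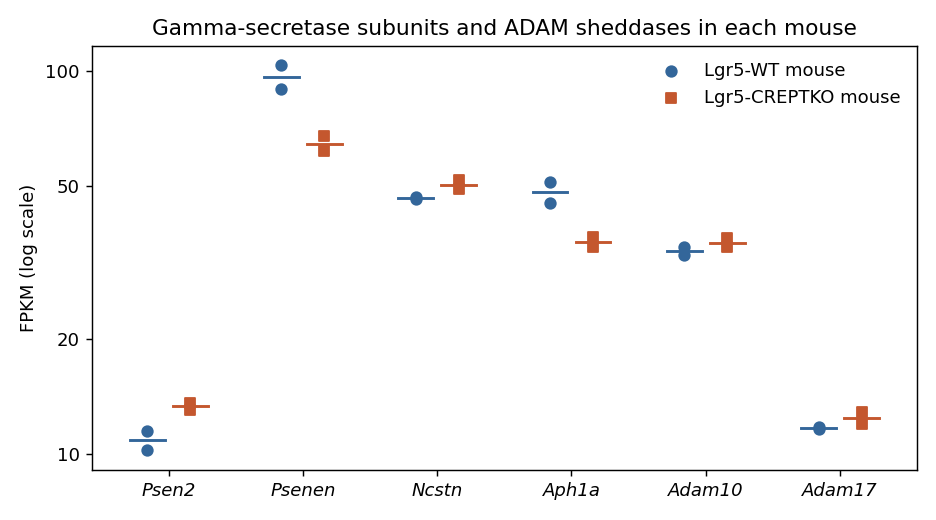
Level in FPKM of each of the 6 genes in each of the 4 mice, with points for mice and bars for the mean of each genotype. Psenen and Aph1a have both Lgr5-CREPTKO points below both Lgr5-WT points, Psen2, Ncstn and Adam17 have both above, and Adam10 overlaps.

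The sheddases were steadier. Adam10, on chromosome 9 from 70678944 to 70780229 on the plus strand, encodes the protease that makes the ligand-dependent cut in Notch. It measured 33.1 and 34.8 FPKM in Lgr5-WT mice and 36.53 and 34.79 FPKM in Lgr5-CREPTKO mice, so the groups overlapped. Its log2 fold change was 0.07 with a 95% interval of -0.12 to 0.26 and a limma adjusted p of 0.614. Adam17, on chromosome 12 from 21323509 to 21373632 on the minus strand, measured 11.77 and 11.65 FPKM in Lgr5-WT mice and 12.92 and 11.98 FPKM in Lgr5-CREPTKO mice. Both Lgr5-CREPTKO values were above both Lgr5-WT values by a margin smaller than the distance between the Lgr5-CREPTKO mice themselves. Its log2 fold change was 0.08 with a 95% interval of -0.14 to 0.31 and a limma adjusted p of 0.61. Neither interval reached the size of the difference seen for Psenen, which does not show that the sheddase levels were equal. Adam10 has a transcript of 4593 bases in 16 exons and shares no exonic base with another gene. Adam17 has 4469 bases in 20 exons and shares 311 of 7154 exonic bases with Iah1 on the opposite strand, which overlapped between the groups at 28.86 and 18.05 against 19.97 and 20.87 FPKM.

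Counted over all members, 2 had both Lgr5-CREPTKO values below both Lgr5-WT values and 3 had both above, where 31.0% and 25.6% of all genes tested did so. The share without overlap is thus large in the background as well. The median log2 fold change was -0.15 over the 4 gamma-secretase members and 0.08 over the sheddases, beside -0.0139 over all genes tested. The smallest two-sided p that exact permutation of 2 against 2 mice allows is 0.333, so any call depends on limma's pooling of variance over the table.

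**Figure D2:**
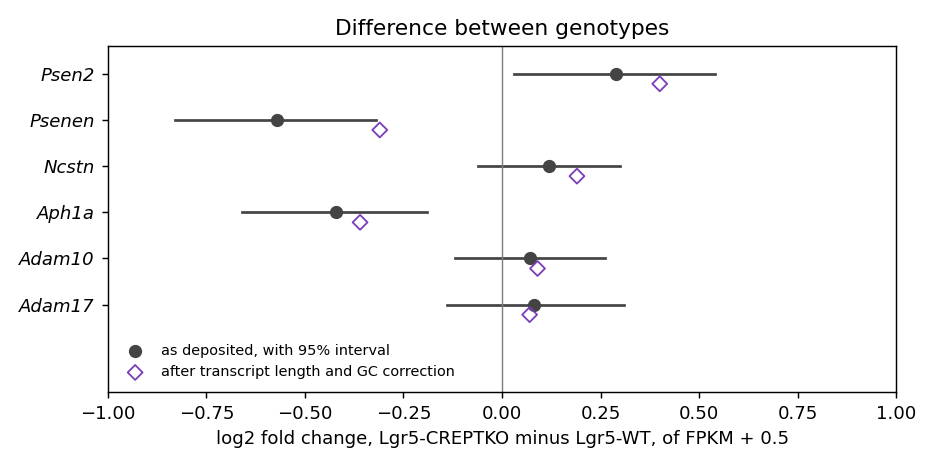
Log2 fold change of each gene, Lgr5-CREPTKO minus Lgr5-WT, on the scale of FPKM + 0.5, with filled points and 95% intervals for the values as deposited and open diamonds for the values after correction for transcript length and GC content. The intervals of Psenen and Aph1a lie below 0 as deposited, that of Psen2 lies above it, and the corrected value of Psenen is nearer to 0 at -0.31.

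The order of the mean levels per length differed between the genotypes, in part by narrow margins. In Lgr5-WT cells Psenen was highest, followed by Aph1a and Ncstn, whose ranges overlapped, then Adam10, Adam17 and Psen2. In Lgr5-CREPTKO cells Psenen was again highest, Ncstn came next, and Aph1a and Adam10 overlapped. Psen2 stood above Adam17 there, with its lower mouse at 13.06 FPKM against 12.92 FPKM in the higher mouse for Adam17. Psenen exceeded 92.7% of all genes tested in mean level, Ncstn 86.9%, Aph1a 84.6% and Adam10 81.0%, while Psen2 and Adam17 stood near the middle at 51.1% and 51.0%.

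Since the subunits assemble into the same complex, their levels were also set against each other within each mouse. A scaling factor common to all genes cancels in such ratios. The trend with transcript length described further on does not cancel where lengths differ, and Psenen has a shorter transcript than Psen2 and Ncstn. The ratio of Psenen to Ncstn was 1.94 and 2.21 in Lgr5-WT mice and 1.37 and 1.19 in Lgr5-CREPTKO mice. The ratio of Aph1a to Ncstn was 0.981 and 1.09 in Lgr5-WT mice and 0.707 and 0.712 in Lgr5-CREPTKO mice. Both ratios were lower in every Lgr5-CREPTKO mouse. Psen2 to Ncstn ran the other way, at 0.222 and 0.245 against 0.266 and 0.263. Among the subunits the widest difference was in Psenen to Psen2, at 8.77 and 8.99 in Lgr5-WT mice and 5.17 and 4.54 in Lgr5-CREPTKO mice. Psenen to Aph1a, the 2 members that were lower, stood at 1.98 and 2.02 against 1.94 and 1.67. Adam10 to Adam17 overlapped between the groups at 2.81 and 2.99 against 2.83 and 2.9. These are ratios of RNA levels and carry no information on the protein complex.

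**Figure D3:**
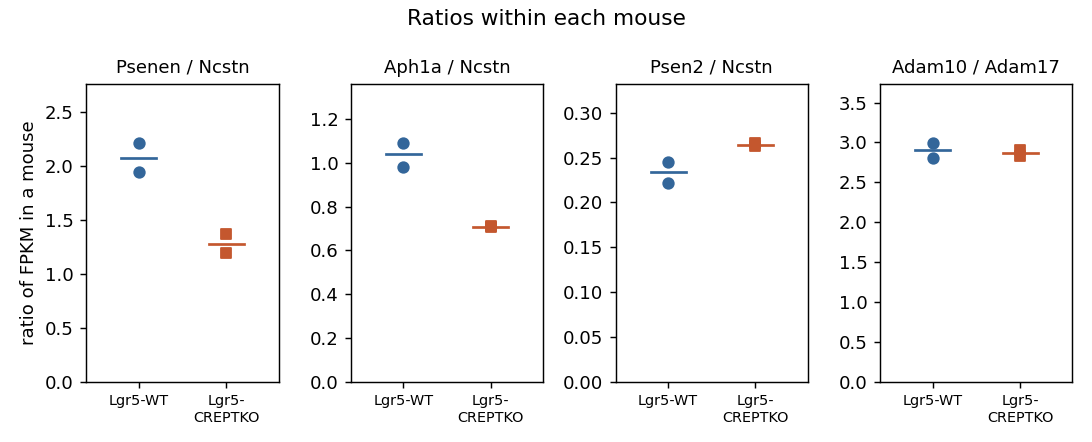
Ratios of FPKM between members within each of the 4 mice, with points for mice by genotype. Psenen and Aph1a relative to Ncstn are lower in both Lgr5-CREPTKO mice, and Psen2 relative to Ncstn is higher in both. The ratio of Adam10 to Adam17 overlaps between the genotypes.

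Summed over the 4 gamma-secretase members, the level was 191.5 and 213.0 FPKM in Lgr5-WT mice and 164.4 and 164.1 FPKM in Lgr5-CREPTKO mice. Psenen and Aph1a made up this gap, since Psen2 and Ncstn lay higher in Lgr5-CREPTKO mice. The sheddase sum was 44.87 and 46.45 FPKM in Lgr5-WT mice and 49.45 and 46.77 FPKM in Lgr5-CREPTKO mice.

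Transcript length moved with these results. When the genes tested were divided into deciles by transcript length, the median log2 fold change went from -0.21 in the shortest decile to 0.18 in the longest. In the shortest decile 48.0% of genes were lower and 7.88% higher without overlap in Lgr5-CREPTKO cells, and in the longest decile 10.3% were lower and 58.7% higher. The shortest decile deviated from the mean of the 4 mice by 0.11 and 0.13 in Lgr5-WT mice and by -0.15 and -0.09 in the Lgr5-CREPTKO mice on the log2 scale. Both mice of a genotype thus lay on the same side. Deviations from a shared mean do not tell which genotype departs. Psenen belonged to the shortest decile, Psen2 to the fourth, Ncstn and Aph1a to the fifth, and Adam10 and Adam17 to the eighth.

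After natural splines of transcript length and GC content were taken out of each mouse's values, Psenen had a log2 fold change of -0.31 with a limma adjusted p of 0.243. For Aph1a the value was -0.36 with an adjusted p of 0.0985. Psenen thus kept its direction at a smaller size, and Aph1a, which is of middling length, moved little. Psen2 went to 0.4 with an adjusted p of 0.0985 and Ncstn to 0.19 with an adjusted p of 0.205. Adam10 and Adam17 stood at 0.09 and 0.07. What gave rise to the length trend was not tested.

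**Figure D4:**
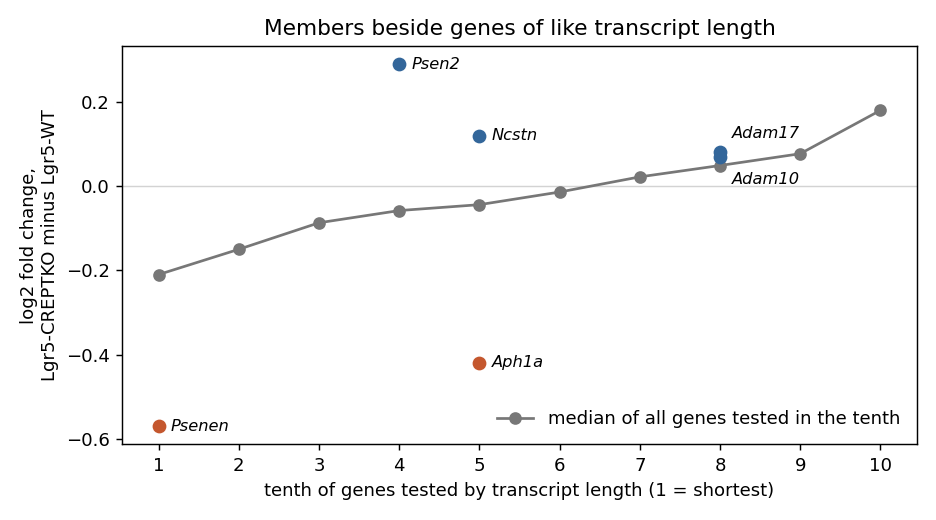
Median log2 fold change, Lgr5-CREPTKO minus Lgr5-WT, of all genes tested in deciles of transcript length, with the 6 members drawn at their own deciles. The medians climb from -0.21 to 0.18, and Psenen and Aph1a lie below the median of their deciles.

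The promoters of the members were searched for 6 short motifs. The motifs were a GC box with the letters GGGCGG, the CCAAT box, an ETS core with the letters CCGGAA, an AT-rich box with the letters TATAAA, an E-box with the letters CACGTG and a cyclic AMP response element with the letters TGACGTCA. They were looked for on both strands of the 250 bases before each of 32851 annotated starts. The GC box was held by 32.7% of all these windows, the CCAAT box by 33.8%, the ETS core by 12%, the AT-rich box by 12.4%, the E-box by 6.02% and the cyclic AMP element by 1.55%. The 6 members had 8 of these windows, of which 4 held a GC box, 3 a CCAAT box, 4 an ETS core, 2 an E-box and 0 either of the others. The ETS core was in Psenen, Ncstn, Aph1a and Adam17, which lie on both sides of their Lgr5-WT levels. Aph1a held 1 GC box, 2 CCAAT boxes and 1 ETS core, as marked in the sequence above. The window of the longer Psenen transcript held 1 CCAAT box and 1 ETS core, and that of the shorter transcript held none of these letters. 1 window of Psen2 held 2 GC boxes and the other 1 E-box, Ncstn 2 ETS cores, Adam10 3 GC boxes, 2 CCAAT boxes and 1 E-box, and Adam17 1 GC box and 1 ETS core. A match is a run of letters and not a measured site.

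Genes that act with the members were read from 16 lists that held 83 genes tested. Of these, 0 were lower and 3 higher at an adjusted p below 0.05 in the limma fit, 20 were lower and 33 higher without overlap, and their median log2 fold change was 0.07. Beside these counts stand the shares over all genes given above, 0.412% called higher, 31.0% lower without overlap and 25.6% higher without overlap. They apply to each list that follows. The shares without overlap moved with transcript length, and the list counts were not set against genes of like length. The 3 genes that rose were Jag2, a Notch ligand, Arrb1, a beta-arrestin that has been tied to gamma-secretase activity, and Ptprf, a receptor phosphatase that is itself cut by ADAM proteases and gamma-secretase. Jag2 measured 1.07 and 1.09 FPKM in Lgr5-WT mice and 3.88 and 2.93 FPKM in Lgr5-CREPTKO mice (log2 fold change 1.29, limma adjusted p 0.0438). Arrb1 measured 23.7 and 23.5 against 32.33 and 32.23 FPKM (0.44, adjusted p 0.0492), and Ptprf measured 62.89 and 62.7 against 90.02 and 86.09 FPKM (0.48, adjusted p 0.0398). All 3 calls rest on narrow margins. With any 1 of the 4 mice left out the adjusted p was 0.132 to 0.295 for Jag2, 0.187 to 0.295 for Arrb1 and 0.149 to 0.295 for Ptprf, and with the length and GC correction it was 0.0696, 0.105 and 0.124.

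Among 9 tested genes of gamma-secretase assembly and regulation, 5 were lower and 1 higher without overlap, with a median log2 fold change of -0.15. Bsg, which encodes a membrane protein found with the complex, measured 384.45 and 408.4 FPKM in Lgr5-WT mice and 399.96 and 396.56 FPKM in Lgr5-CREPTKO mice. Rer1, which holds the unassembled Psenen product in the endoplasmic reticulum, measured 82.03 and 84.73 against 73.03 and 64.37 FPKM (log2 fold change -0.28, adjusted p 0.141) and was picked out after its values were seen. For Rer1, as for Psenen, the groups did not overlap.

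The partners of the sheddases gave no adjusted call. Of 5 tested tetraspanins that guide ADAM10 through the cell, 1 was lower and 2 higher without overlap, and the most abundant, Tspan14, measured 29.35 and 32.76 FPKM in Lgr5-WT mice and 32.19 and 26.89 FPKM in Lgr5-CREPTKO mice. Of 4 genes of iRhoms and the trafficking of ADAM17, 1 was lower and 3 higher without overlap, with a median log2 fold change of 0.3. Rhbdf1, which encodes an iRhom, measured 14.14 and 13.88 against 15.66 and 23.71 FPKM. Of 5 proprotein convertases, which remove the inhibitory prodomain of ADAM proteases, 4 were higher without overlap. Furin measured 17.61 and 20.11 against 23.06 and 24.14 FPKM (adjusted p 0.135), and Pcsk7 measured 9.13 and 10.27 against 6.7 and 7.2 FPKM (adjusted p 0.0933). Of the metalloproteinase inhibitors only Timp2 and Timp3 passed the filter, with values of 0.61 to 2.23 FPKM over the 4 mice.

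Other proteases of the same families were mixed. Of 3 other ADAM genes tested 1 was lower without overlap, and Adam9 measured 10.66 and 11.21 FPKM in Lgr5-WT mice and 11.24 and 9.42 FPKM in Lgr5-CREPTKO mice. Of 7 other intramembrane proteases 1 was lower without overlap, and the most abundant, Parl of the mitochondrial inner membrane, overlapped at 51.68 and 46.71 against 42.9 and 56.28 FPKM. Of the beta-secretases, Bace1 overlapped at 6.98 and 7.55 against 8.49 and 6.67 FPKM and Bace2 did not, at 1.26 and 2.47 against 1.05 and 1.02 FPKM.

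On the substrate side, the 3 Notch receptor genes tested were higher without overlap, with a median log2 fold change of 0.49 and no adjusted call. Notch1 measured 26.21 and 18.18 FPKM in Lgr5-WT mice and 34.78 and 31.16 FPKM in Lgr5-CREPTKO mice. Notch2 measured 7.95 and 7.49 against 11.19 and 10.96 FPKM. Notch4 was near the filter, at 0.9 and 0.59 against 0.96 and 1.01 FPKM, so its direction carries little weight. Over all genes tested 25.6% were higher without overlap, from 7.88% in the shortest length decile to 58.7% in the longest. The place of the receptor genes in this trend was not tested. Of 4 ligands, Dll1 and Dll4 were lower without overlap, at 24.96 and 34.65 against 23.66 and 21.0 FPKM and at 7.75 and 9.54 against 6.46 and 5.02 FPKM, and Jag1 and Jag2 were higher. Dll1 is also one of the secretory progenitor markers given above. Of 8 modifiers of Notch or its ligands 4 were lower and 2 higher without overlap, and 1 of the lower genes, Mfng, passed the filter only through the Lgr5-WT mice.

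Of 5 tested target genes of the freed Notch domain 0 were lower and 3 higher without overlap, with no adjusted call. Hes5, 1 of the 3, measured 0.26 and 0.26 FPKM in Lgr5-WT mice and 0.77 and 1.26 FPKM in Lgr5-CREPTKO mice and passed the filter only through the latter, so its count there is no support for a direction. Hes1, the repressor that holds back the secretory programme, measured 72.65 and 74.55 FPKM in Lgr5-WT mice and 79.03 and 82.69 FPKM in Lgr5-CREPTKO mice (adjusted p 0.296). Olfm4, a target and a stem cell marker, measured 5076.86 and 4931.99 against 5350.9 and 5181.04 FPKM (adjusted p 0.685). Of 4 genes of the nuclear complex reported here 3 were higher without overlap, and Spen, which encodes a cofactor of RBPJ, measured 13.5 and 11.48 against 16.37 and 16.3 FPKM (adjusted p 0.121). RNA levels of targets are not a measure of protease activity, which was not measured here.

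Of 4 tested EGF receptor ligands, which ADAM17 and ADAM10 release, 2 were higher without overlap and 0 lower. Hbegf was the most abundant, at 70.25 and 22.03 FPKM in Lgr5-WT mice and 56.32 and 65.41 FPKM in Lgr5-CREPTKO mice. Of 17 other membrane proteins cut by these enzymes 3 were lower and 7 higher without overlap, with a median log2 fold change of 0.09. Cdh1, which encodes E-cadherin and is cut by ADAM10, measured 243.87 and 259.63 against 274.41 and 272.01 FPKM (adjusted p 0.367).

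**Figure D5:**
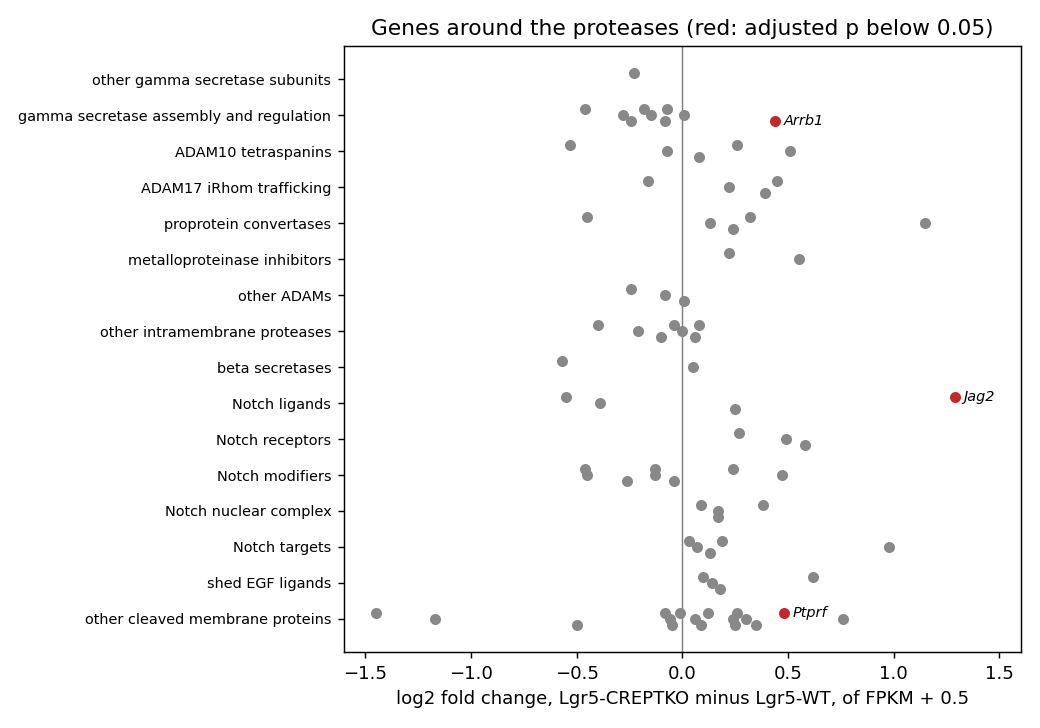
Log2 fold change, Lgr5-CREPTKO minus Lgr5-WT, of the genes tested in each list of partners, regulators and substrates, with 1 point per gene and red points for an adjusted p below 0.05. Jag2, Arrb1 and Ptprf are the red points, all to the right of 0.

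The genes whose profile over the 4 mice was closest to a member's were found from the root mean square difference of centred log2 values. For Psenen they were Ppih, Gstm5 and Fadd, at differences of 0.0251, 0.0254 and 0.0312, and for Aph1a they were Spats2l, Pcsk7 and Tmem54, at 0.0131, 0.0154 and 0.016. Pcsk7 is the convertase described above. For Psen2 the closest were Tigd5, D930048N14Rik and Urgcp, for Ncstn Gatad2a, A430005L14Rik and Ncoa5, for Adam10 Safb, Aldh9a1 and Cwc22, and for Adam17 Ulk1, Prkar2a and Slc30a5. Spats2l, at 0.62 and 0.75 against 0.34 and 0.4 FPKM, passed the filter only through the Lgr5-WT mice. Tigd5, at 0.39 and 0.5 against 0.62 and 0.67 FPKM, passed it only through the Lgr5-CREPTKO mice. At such levels the added 0.5 FPKM shapes the profile, so their likeness carries little weight. With 4 mice many of the 12621 genes share any given profile closely.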

How the data were processed

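The members and gene lists were chosen with earlier results of these data known. RNA of sorted Lgr5-GFPhigh cells was sequenced on a BGISEQ-500. The authors used Bowtie2 against GRCm38.p6 transcripts and RSEM, and deposited FPKM values per gene to 2 decimals, and the submitters' processing notes also name HISAT and mm10. FPKM keeps no depth, so the depth per library is unknown. The FPKM sums were 495758 and 499327 in Lgr5-WT mice and 468830 and 473662 in Lgr5-CREPTKO mice, and replicates correlated at 0.983 and 0.977 over genes on the log2 scale. The count model named by the study needs counts and was not run.

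Values were fitted as log2(FPKM + 0.5) on genotype, for genes averaging 0.5 FPKM or more, with limma 3.58.1 (R 4.3.3, moderated test with intensity trend), with Benjamini-Hochberg adjustment over 12621 genes. Fold changes are on this scale, which understates changes of low genes. The replicates are separate mice as far as the labels say, with 2 per genotype. The same replicate numbers in both genotypes name different animals. Besides the members and the deleted gene, named genes were those of the lists past an adjusted p of 0.05, up to 3 per list by mean FPKM, and the 3 most alike profiles per member. 15 alternatives were tried, of which the transcript length and GC correction (splines with 5 degrees of freedom) was chosen after seeing the data. Positions, lengths, overlaps and promoters came from RefSeq and GENCODE on GRCm38. 2 genes of the lists are not reported here.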

Additional observations from a re-analysis of the deposited data

How the results depend on the processing

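The 6 members kept their direction under all 15 alternatives, and the number past an adjusted p of 0.05 was 0 under all of them except with small RNA genes left out, where it was 1 (Psenen). Over the alternatives the log2 fold change of Psenen ran from -0.68 to -0.31 with adjusted p from 0.0418 to 0.303, that of Aph1a from -0.51 to -0.34 (0.0625 to 0.324), that of Psen2 from 0.21 to 0.4 (0.0985 to 0.393), that of Ncstn from 0.08 to 0.19, that of Adam10 from 0.03 to 0.15 and that of Adam17 from 0.03 to 0.16. The median of the gamma-secretase members moved from -0.15 to -0.064 with the length and GC correction and -0.077 with samples scaled to the same sum. With 1 mouse left out, where the lone mouse is assumed to vary like the other group, it ran from -0.203 to -0.105, that of the sheddases from 0.033 to 0.12, and members called from 0 to 0. The count of 3 calls in the pathway lists was 2 with samples scaled to the same sum, 4 with small RNA genes left out, 0 without the filter on low values, 0 without the intensity trend, 0 with the length and GC correction and 0 to 0 with 1 mouse left out.

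With the replicate number as a block the pathway lists gave 1 call, Aplp1 (named after its value was seen), and 0 members were called (Psenen adjusted p 0.076). Aplp1 was lower in Lgr5-CREPTKO mice, at 1.66 and 2.48 FPKM against 5.32 and 7.76 FPKM in Lgr5-WT mice. The deviations of same-numbered mice correlated at -0.0266 over genes. A single value from so few mice cannot show whether same-numbered mice were handled together, and the labels do not say. Calls over all genes, 337 lower and 52 higher, became 168 and 15 with the block, 166 and 36 with samples scaled to the same sum, 508 and 115 without small RNA genes, 98 and 12 with the length and GC correction, 4 and 0 without the trend, and 0 and 0 without the filter or with 1 mouse left out. The cause of these shifts was not tested. The call of Rprd1b was lost without the filter (adjusted p 0.116), without the trend (0.0623) and with 1 mouse left out (0.123 to 0.295). Since FPKM keeps no depth, the counting error of low values is unknown.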
